A study of Mus musculus with 4 samples.

Results

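The NF-kB subunits and feedback inhibitors described here are 10 genes of the 19737 in the deposited count table, found by their symbols: Nfkb1, Nfkb2, Rel, Rela and Relb, which encode the subunits, Nfkbia, Nfkbiz, Tnfaip3 and Bcl3, which encode regulators that NF-kB itself induces, and Icam1, an adhesion molecule and a well-known target. They were measured by single-cell RNA-seq in microglia of 20 mice in 5 groups of 4. The WT;TfRmu/hu mice were split between ATV:ISO and ATV:4D9, and the AppSAA;TfRmu/hu mice between ATV:ISO, 4D9 and ATV:4D9, given as a single intravenous dose of 10 mg/kg 1 day before the brains were taken. All mice carried the TfRmu/hu allele, in which the mouse transferrin receptor holds the human apical domain that the antibody transport vehicle (ATV) binds. AppSAA is a knock-in of App with mutations that cause amyloid deposition. 4D9 is an antibody that activates mouse TREM2, a receptor of microglia, and ATV:4D9 is 4D9 with the transport vehicle. ATV:ISO is the isotype control, deposited as ATV:DNP02, a reading that no deposited text states. The Fc backbones given in the deposited annotation differ between the antibodies, huIgG1 LALA for the isotype, hIgG1-LALAPG de-gly for 4D9 and de-gly huIgG1 LALA for ATV:4D9. The mice were C57BL/6J, and 1 of the 4 WT mice given ATV:ISO (replicate 4) is recorded as female and the other 19 as male. An entry of the reporting summary for WT, AppSAA and TfRmu/hu animals gives males of 8 months. Whether it covers the WT;TfRmu/hu mice, which another entry lists as of mixed sex, is not stated.

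NF-kB factors are dimers of the 5 subunits. In the canonical branch, dimers such as p50 (from Nfkb1) with RelA or c-Rel are held in the cytoplasm by IkappaB proteins until the IKK kinases mark the inhibitor for degradation. In the non-canonical branch the p100 product of Nfkb2 is processed to p52, which pairs with RelB. Active dimers also induce their own brakes, among them IkappaBalpha (Nfkbia) and A20 (Tnfaip3), so the transcripts of these genes are often used to follow the pathway in microglia and other myeloid cells.

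The kappaB element that these dimers bind was searched for in the 250 bases upstream of the start, on both strands, by its consensus of 10 letters. Of the 10 genes, 7 had a promoter window in the RefSeq-based table used (build GRCm38.p6), and 4 of these (Nfkb2, Rel, Nfkbia and Tnfaip3) held a match. Windows of Rela, Bcl3 and Icam1 held none, and Nfkb1, Relb and Nfkbiz had no window. Of all gene symbols in the table, 1204 of 27025 (4.46%) had a window with a match. A match is a description of the letters and not of binding. The stretches around the matches of Nfkbia and Rel are shown because these genes moved in opposite directions under ATV:4D9 as a share of all transcripts counted. Counted per cell, the group means of both genes were higher under ATV:4D9. Capitals mark the match, and in Rel they mark 2 overlapping matches.
Nfkbia, chr12:55492648-55492706, minus strand: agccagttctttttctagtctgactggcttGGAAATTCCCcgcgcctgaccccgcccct
Rel, chr11:23771021-23771091, minus strand: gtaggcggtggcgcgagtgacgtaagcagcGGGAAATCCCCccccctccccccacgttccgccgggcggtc

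The series held 74758 cells, 2193 to 6126 per mouse, with a median of 11351 UMIs per cell and total UMIs per mouse between 17150296 and 102446549. A UMI (unique molecular identifier) marks a single captured transcript molecule. The mean over mice of the median UMIs per cell was 7566 in WT mice given ATV:ISO, 15338 in WT mice given ATV:4D9, 9339 in AppSAA mice given ATV:ISO, 9741 in AppSAA mice given 4D9 and 15523 in AppSAA mice given ATV:4D9. Cells sorted for CD11b were microglial by their markers: 7 microglial genes summed to 20785 to 29499 CPM (counts as a share of a mouse's total UMIs, on a fixed scale) in each mouse, whereas group means were 17.1 to 22.3 for 5 genes of border macrophages, 5.44 to 12.2 for monocytes, 10.2 to 16.0 for neutrophils, 0.170 to 0.411 for T and NK cells, 11.03 to 45.7 for endothelial cells, 67.7 to 133 for astrocytes and 38.0 to 58.1 for oligodendrocytes. Under ATV:4D9 the sum of the astrocyte markers went from 133 to 67.7 CPM in WT mice and from 99.5 to 87.5 CPM in AppSAA mice. The sum of the oligodendrocyte markers went from 56.2 to 38.0 CPM and from 57.1 to 44.7 CPM. Of 4 astrocyte markers 1 was called lower in WT mice and 0 in AppSAA mice, with median log2 fold changes of 0.14 and 0.25. Of 4 oligodendrocyte markers 2 were called lower in WT mice and 1 in AppSAA mice. In both lists 0 were called higher. The 4 monocyte markers summed to 4.17 to 9.81 CPM in AppSAA mice given ATV:ISO and 11.1 to 13.6 CPM in those given ATV:4D9, where Plac8 was called higher and Ccr2, Ly6c2 and Chil3 lower. Of the 7 microglial markers, 5 were lower under ATV:4D9 in WT mice (32.5% of all genes were), 5 in AppSAA against WT mice under ATV:ISO (13.7% of all genes) and 4 under ATV:4D9 in AppSAA mice (27.1% of all genes), and the part of these markers in the results was not tested. Barcode sequences found in more than 1 pool numbered 543 and covered 1089 cells (1.46%). Each of 4 pools, which the deposited protocol describes as batches, held 1 mouse of every group. Values of the mice in a group are given below in the order of the pools, which carries no meaning of its own.

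All 10 genes passed the filter on low counts and were tested with edgeR's quasi-likelihood test with Benjamini-Hochberg adjustment over 14058 genes. ATV:4D9 in WT mice, against ATV:ISO, changed 8 of the 10 genes, where 63.3% of all genes were called. Nfkb2, Relb, Nfkbia, Bcl3 and Icam1 rose, 5 of 10 where 30.8% of all genes rose, and Nfkb1, Rel and Rela fell, 3 of 10 where 32.5% of all genes fell. With the pool as a block all 10 were called, where 74.6% of all genes were called, the additions being Nfkbiz and Tnfaip3. In AppSAA mice ATV:4D9 changed 7 of 10 against ATV:ISO, where 55.1% of all genes were called: Nfkb2, Relb, Nfkbia, Bcl3 and Icam1 rose here too (27.9% of all genes rose) and Rel and Rela fell (27.1% of all genes fell). Levels of the ATV:4D9 and ATV:ISO mice did not overlap for 8 of the 10 genes in WT mice, against 55.6% of all genes, and for 5 of 10 in AppSAA mice, against 47.6% of all genes. Against 4D9 without the vehicle, ATV:4D9 changed 6 of 10 in AppSAA mice, where 54.3% of all genes were called. 4D9 against ATV:ISO in AppSAA mice changed 0 of 10, where 0% of all genes were called. AppSAA against WT mice under ATV:ISO changed 2 of 10, where 28.2% of all genes were called, and 7 of 10 with the pool as a block, where 51% were called. AppSAA against WT mice under ATV:4D9 changed 2 of 10, where 11.8% of all genes were called, and 6 of 10 with the block, where 31.4% were called. The test of whether the ATV:4D9 difference depended on genotype, an interaction term, called 1 of 10, where 9.14% of all genes were called, and 3 of 10 with the block, where 30.5% were called. The comparisons between pairs of groups share control mice (WT mice given ATV:ISO serve 2 of them and AppSAA mice given ATV:ISO serve 3). The interaction uses both of these control groups as well. The values are therefore given side by side.

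**Figure D1:**
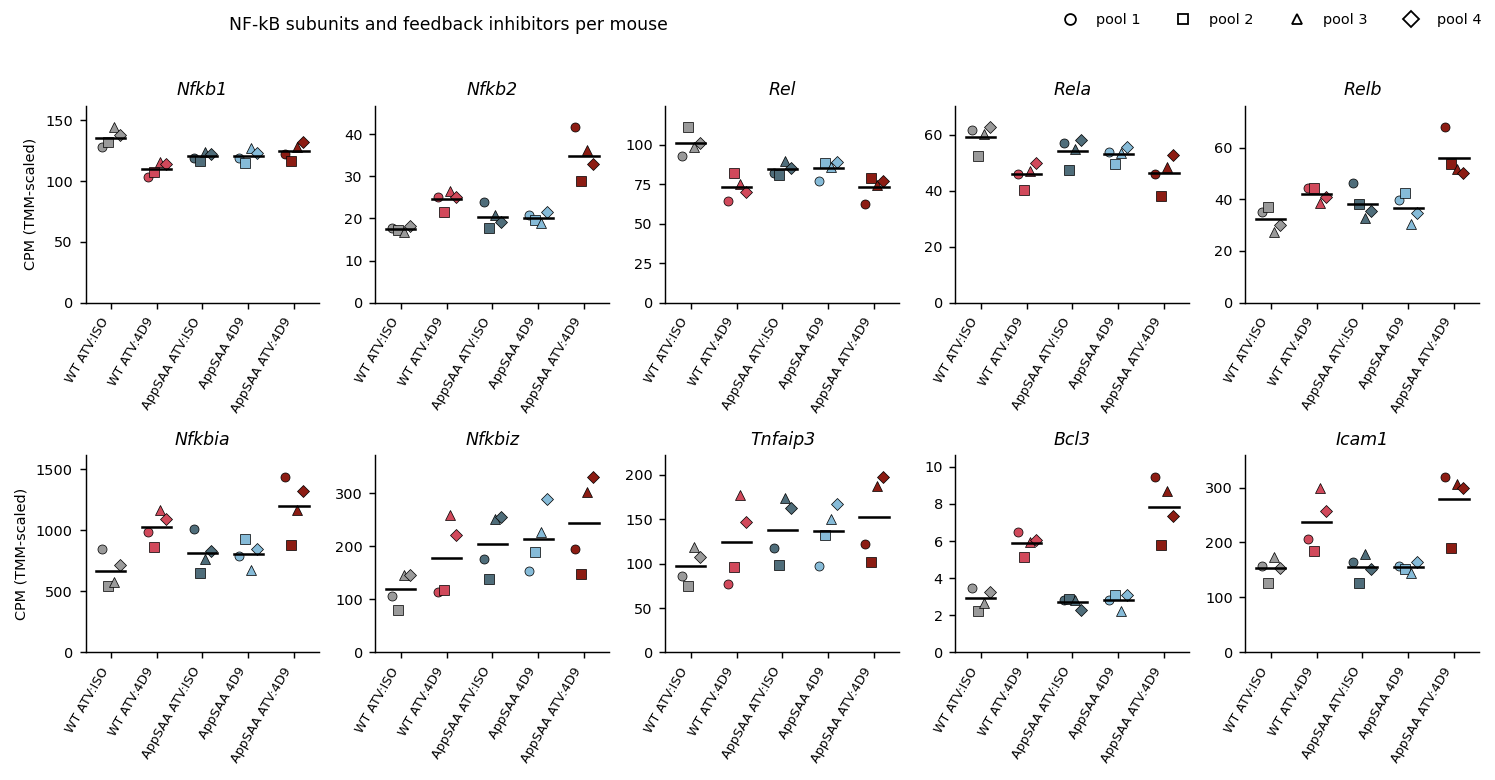
Level of the 10 genes in each mouse, in CPM of UMIs summed over all cells of the mouse with TMM-scaled totals, by group (horizontal) with 1 panel per gene; points are mice, marker shapes are the 4 pools and bars are group means. Bcl3, Nfkb2 and Icam1 sit higher in both ATV:4D9 groups, Rel sits lower in them, and Nfkbiz and Tnfaip3 spread widely within every group.

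Nfkb2 and Relb belong to the non-canonical branch. Nfkb2 (chr19:46304320-46312385, plus strand, GRCm38) measured 17.6, 17.2, 16.9 and 18.1 CPM in WT mice given ATV:ISO and 25.2, 21.5, 26.6 and 25.0 CPM in WT mice given ATV:4D9. In AppSAA mice Nfkb2 measured 23.8, 17.7, 20.8 and 19.2 CPM under ATV:ISO, 20.9, 19.6, 18.8 and 21.5 CPM under 4D9 and 41.7, 28.8, 36.3 and 32.8 CPM under ATV:4D9. No mouse given ATV:4D9 overlapped with the ATV:ISO mice of its genotype, and AppSAA mice given ATV:4D9 were all above WT mice given ATV:4D9. Under ATV:4D9 the log2 fold change of Nfkb2 was 0.49 ± 0.105 (SE, adjusted p = 0.000371) in WT and 0.78 ± 0.102 (adjusted p = 2.39e-06) in AppSAA mice. Against 4D9 it was 0.79 ± 0.102 (adjusted p = 2.14e-06). AppSAA mice exceeded WT mice under ATV:4D9 by 0.51 ± 0.101 on the log2 scale (adjusted p = 0.00162), with a range over the 4 pools of 0.39 to 0.73. Under ATV:ISO the genotype difference of Nfkb2 was 0.22 ± 0.105 (adjusted p = 0.123, and 0.0312 with the pool as a block). Nfkb2 overlaps Psd, a gene on the opposite strand.

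Relb (chr7:19606217-19629438, minus strand) was 34.9, 37.0, 27.4 and 29.98 CPM in WT mice given ATV:ISO and 44.5, 44.4, 38.4 and 40.7 CPM in WT mice given ATV:4D9. In AppSAA mice it was 46.4, 38.1, 32.9 and 35.6 CPM under ATV:ISO, 39.9, 42.3, 30.3 and 34.8 CPM under 4D9 and 68.0, 53.6, 51.7 and 50.3 CPM under ATV:4D9. The 4 AppSAA mice given ATV:4D9 were the highest of all 20. The increase under ATV:4D9 was 0.38 ± 0.126 on the log2 scale in WT mice (adjusted p = 0.0130) and 0.55 ± 0.124 in AppSAA mice (adjusted p = 0.000919). Without WT ATV:ISO replicate 3 the WT value was 0.31 (adjusted p = 0.0525). It was higher in 4 of 4 pools (0.26 to 0.49), with an adjusted p of 4.29e-05 with the block. Against 4D9 the log2 fold change was 0.60 ± 0.125 (adjusted p = 0.000406). Between genotypes Relb differed by 0.41 ± 0.124 under ATV:4D9 (adjusted p = 0.0332). That call was lost without WT ATV:4D9 replicate 2 (0.44), 3 (0.37) or 4 (0.40) and without AppSAA ATV:4D9 replicate 1 (0.30), and with the block its adjusted p was 8.08e-05. Under ATV:ISO the genotype difference of Relb was 0.24 ± 0.127 (adjusted p = 0.163, and 0.00639 with the block).

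Rel, Rela and Nfkb1 encode the canonical subunits. In CPM, Rel and Rela fell under ATV:4D9 in both genotypes and Nfkb1 fell in WT mice. Rel (chr11:23736847-23770970, minus strand), which encodes c-Rel, measured 93.2, 111, 98.9 and 101 CPM in WT mice given ATV:ISO and 64.7, 82.1, 75.1 and 70.3 CPM in WT mice given ATV:4D9. In AppSAA mice Rel measured 81.8, 81.0, 89.7 and 85.6 CPM under ATV:ISO, 77.0, 88.6, 86.2 and 89.3 CPM under 4D9 and 62.7, 78.9, 74.9 and 77.3 CPM under ATV:4D9. Every mouse given ATV:4D9 lay below every ATV:ISO mouse of its genotype, and the group means of both ATV:4D9 groups (73.0 and 73.4 CPM) lay side by side. The log2 fold change of Rel under ATV:4D9 was -0.47 ± 0.0853 in WT mice (adjusted p = 7.41e-05) and -0.20 ± 0.0849 in AppSAA mice (adjusted p = 0.0477). The AppSAA call held in 1 of the 8 fits that leave out a mouse, the fit without ATV:4D9 replicate 2, and the value was -0.14 without ATV:4D9 replicate 1. Against 4D9 it was -0.22 ± 0.0850 (adjusted p = 0.0370), a call lost without 4D9 replicate 2, 3 or 4 or ATV:4D9 replicate 1, 3 or 4 (-0.22 to -0.15). AppSAA mice had less Rel in CPM than WT mice under ATV:ISO (-0.26 ± 0.0853, adjusted p = 0.0281). That call was lost without WT replicate 2 or 4 or AppSAA replicate 1 or 2. Values were -0.29 to -0.20 over all 8 fits that leave out a mouse. With the pool as a block the adjusted p of Rel was 0.00125 under ATV:4D9 in AppSAA mice, 0.000939 against 4D9 and 0.000516 between genotypes under ATV:ISO. Under ATV:4D9 the genotypes differed by 0.01 ± 0.0848 (adjusted p = 0.983).

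Rela (chr19:5637483-5648130, plus strand), which encodes RelA or p65, measured 61.8, 52.3, 60.4 and 62.8 CPM in WT mice given ATV:ISO and 46.2, 40.4, 47.1 and 50.01 CPM in WT mice given ATV:4D9. In AppSAA mice Rela measured 57.2, 47.4, 54.8 and 58.0 CPM under ATV:ISO, 53.8, 49.6, 53.6 and 55.6 CPM under 4D9 and 45.8, 38.0, 48.3 and 52.8 CPM under ATV:4D9. Groups were apart in WT mice and overlapped in AppSAA mice, although within each pool the ATV:4D9 mouse was below its ATV:ISO partner in both genotypes. Under ATV:4D9 Rela changed by a log2 fold change of -0.37 ± 0.0949 in WT mice (adjusted p = 0.00201) and -0.23 ± 0.0943 in AppSAA mice (adjusted p = 0.0422). The AppSAA call was lost without ATV:ISO replicate 1, 3 or 4 or ATV:4D9 replicate 1 or 2, with -0.15 without ATV:4D9 replicate 2, and with the block its adjusted p was 4.71e-05. Against 4D9 the adjusted p of Rela was 0.0802 and became 0.000197 with the pool as a block, at a log2 fold change of -0.20. It was also called without ATV:4D9 replicate 4 (-0.25, adjusted p = 0.0371). Between genotypes under ATV:ISO the log2 difference was -0.13 (adjusted p = 0.347, and 0.0167 with the block), and under ATV:4D9 it was 0.01 (adjusted p = 0.9755).

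Nfkb1 (chr3:135584655-135691547, minus strand), the source of p105 and p50, was the single gene of the 10 whose ATV:4D9 difference depended on genotype in the test. It measured 128, 132, 145 and 138 CPM in WT mice given ATV:ISO and 104, 107, 116 and 114 CPM in WT mice given ATV:4D9. In AppSAA mice it measured 119, 116, 124 and 123 CPM under ATV:ISO, 119, 115, 127 and 123 CPM under 4D9 and 122, 116, 128 and 132 CPM under ATV:4D9. WT mice given ATV:4D9 had the lowest group mean and overlapped with AppSAA mice given 4D9, and the 3 AppSAA groups overlapped with each other. The log2 fold change under ATV:4D9 was -0.30 ± 0.0620 in WT mice (adjusted p = 0.000259) and 0.05 ± 0.0618 in AppSAA mice (adjusted p = 0.534, 95% interval -0.08 to 0.18). The interaction was 0.35 ± 0.0875 on the log2 scale (adjusted p = 0.0139, 95% interval 0.17 to 0.53) and was no longer called without AppSAA ATV:4D9 replicate 4 (0.28, adjusted p = 0.0783), with unscaled library totals (0.40, adjusted p = 0.0526) or with no filter on low counts (0.30, adjusted p = 0.0756). With the block, the interaction was also called for Nfkb2 (adjusted p = 0.0411) and Rel (adjusted p = 0.0108). Without it, the interaction was 0.52 for Bcl3, 0.29 for Nfkb2, 0.27 for Rel, 0.21 for Icam1, 0.17 for Relb, 0.14 for Rela, -0.05 for Nfkbia, -0.22 for Tnfaip3 and -0.32 for Nfkbiz, with adjusted p from 0.171 to 0.932. Against 4D9 the log2 fold change of Nfkb1 was 0.04 ± 0.0619 (adjusted p = 0.597). In CPM, AppSAA mice had less Nfkb1 than WT mice under ATV:ISO (-0.17 ± 0.0620, adjusted p = 0.0421). That call was kept in 1 of 8 fits that leave out a mouse, the fit without WT replicate 1. Within the pools Nfkb1 was lower in 4 of 4 (-0.22 to -0.10), and with the block the adjusted p was 0.000207. Every AppSAA mouse given ATV:4D9 had at least as high a CPM of Nfkb1 as any WT mouse given ATV:4D9. The log2 difference was 0.18 ± 0.0618 (adjusted p = 0.0679, and 0.000285 with the block). A transcript annotated on the same strand, Gm43430, lies within Nfkb1, so reads could be split between them.

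Nfkbia encodes IkappaBalpha, the inhibitor that NF-kB resynthesizes to end its own nuclear phase. Nfkbia (chr12:55489410-55492647, minus strand) measured 844, 541, 573 and 720 CPM in WT mice given ATV:ISO and 987, 862, 1165 and 1091 CPM in WT mice given ATV:4D9. In AppSAA mice it measured 1013, 649, 765 and 834 CPM under ATV:ISO, 788, 932, 673 and 845 CPM under 4D9 and 1442, 880, 1169 and 1327 CPM under ATV:4D9. WT groups did not overlap, and in AppSAA mice the lowest ATV:4D9 mouse lay within the range of the other groups while each pool's ATV:4D9 mouse exceeded its ATV:ISO partner. Nfkbia rose under ATV:4D9 by a log2 fold change of 0.62 ± 0.165 in WT mice (adjusted p = 0.00283) and 0.56 ± 0.165 in AppSAA mice (adjusted p = 0.00681). Against 4D9 the log2 fold change was 0.57 ± 0.165 (adjusted p = 0.00616), with 3 of 4 pools higher (-0.08 to 0.87). Between genotypes under ATV:ISO it was 0.28 ± 0.164 (adjusted p = 0.211), and under ATV:4D9 0.23 ± 0.164 (adjusted p = 0.466). The 21 immediate early genes, which tissue dissociation can induce together with Nfkbia, averaged 16119 CPM in sum in WT mice given ATV:ISO and 12103 CPM in WT mice given ATV:4D9, and 16592, 16440 and 13011 CPM in AppSAA mice given ATV:ISO, 4D9 and ATV:4D9. Their part in the Nfkbia levels was not tested. Both single-gene patterns closest to Nfkbia over the 20 mice, measured as the root mean square of the log2 difference after centring, belonged to Smim3 (0.160) and Ifrd1 (0.162).

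Nfkbiz encodes IkappaBzeta, an inducible nuclear IkappaB protein, and Tnfaip3 encodes A20, a ubiquitin-editing enzyme that stops signalling upstream of IKK. Nfkbiz (chr16:55811375-55838899, minus strand) measured 107, 80.9, 147 and 146 CPM in WT mice given ATV:ISO and 114, 119, 260 and 222 CPM in WT mice given ATV:4D9. In AppSAA mice Nfkbiz measured 176, 138, 252 and 255 CPM under ATV:ISO, 153, 189, 227 and 290 CPM under 4D9 and 196, 147, 303 and 332 CPM under ATV:4D9. In each group the mice of pools 3 and 4 were above those of pools 1 and 2, and all groups overlapped with their neighbours. The log2 fold change under ATV:4D9 was 0.57 ± 0.299 in WT mice (adjusted p = 0.104, 95% interval -0.05 to 1.20). With the pool as a block the WT value was 0.53 (adjusted p = 0.000503), and without WT ATV:4D9 replicate 1 it was 0.74 (adjusted p = 0.0451). In AppSAA mice the ATV:4D9 value was 0.25 ± 0.297 (adjusted p = 0.501, and 0.0877 with the block), and against 4D9 it was 0.18 ± 0.297 (adjusted p = 0.627). Nfkbiz was higher in the AppSAA than in the WT mouse of every pool under ATV:ISO, by 0.71 to 0.81 on the log2 scale. The fit without the pool gave 0.77 ± 0.3003 (adjusted p = 0.0603), the fit with the pool as a block gave an adjusted p of 3.03e-05, and without AppSAA ATV:ISO replicate 2 the value was 0.93 (adjusted p = 0.0388). For Nfkbiz the genotype difference under ATV:4D9 was 0.45 ± 0.298 (adjusted p = 0.419, and 0.00443 with the block).

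Tnfaip3 (chr10:19000910-19015657, minus strand) measured 86.3, 74.5, 119 and 107 CPM in WT mice given ATV:ISO and 77.1, 95.9, 178 and 147 CPM in WT mice given ATV:4D9. In AppSAA mice it measured 118, 98.9, 175 and 162 CPM under ATV:ISO, 97.0, 133, 151 and 168 CPM under 4D9 and 122, 102, 187 and 198 CPM under ATV:4D9. All 5 groups overlapped with their neighbours. The WT difference under ATV:4D9 was 0.36 ± 0.260 (adjusted p = 0.238, 95% interval -0.18 to 0.90), with 3 of 4 pools higher, and its adjusted p was 0.0193 with the block. The AppSAA difference under ATV:4D9 was 0.14 ± 0.258 (adjusted p = 0.679, and 0.336 with the block), and against 4D9 it was 0.15 ± 0.258 (adjusted p = 0.647). Between genotypes under ATV:ISO, Tnfaip3 differed by 0.52 ± 0.260 (adjusted p = 0.149, and 0.00154 with the block), with 0.41 to 0.60 within the pools. In Tnfaip3 the genotypes differed under ATV:4D9 by 0.29 ± 0.258 (adjusted p = 0.588, and 0.0446 with the block). Among 8023 genes searched, the pattern closest to Nfkbiz over the 20 mice was that of Tnfaip3 (root mean square log2 difference 0.164).

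**Figure D2:**
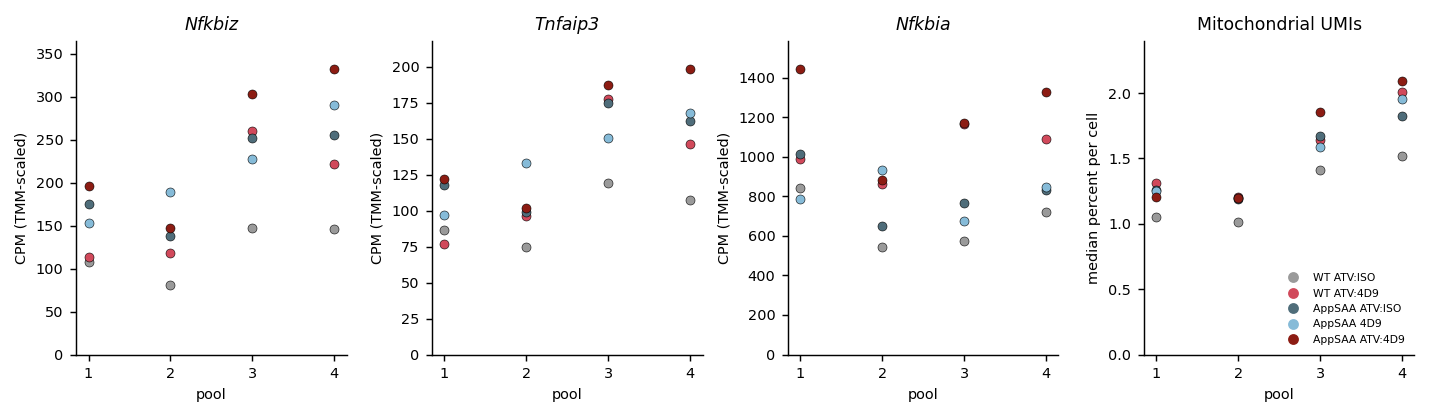
Levels of Nfkbiz, Tnfaip3 and Nfkbia in CPM and the median percentage of mitochondrial UMIs per cell (vertical axes) for each mouse, by pool (horizontal) and group (colour). Nfkbiz and Tnfaip3 are higher in pools 3 and 4, as is the mitochondrial percentage.

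The pool accounted for 87.6% of the within-group variation of Nfkbiz, 83.5% for Tnfaip3 and 88.1% for Rela, against 46.2% for Nfkbia and 29.1% for Bcl3. Some share arises even where pools do not differ, and these shares were not tested. Mean levels by pool were 149, 135, 238 and 249 CPM for Nfkbiz. For Relb they were 46.7, 43.1, 36.1 and 38.3 CPM, which runs the other way. Rela was lowest in pool 2 and highest in pool 4 in all 5 groups. The median mitochondrial percentage per mouse was 1.01 to 1.32 in pools 1 and 2 and 1.41 to 2.09 in pools 3 and 4, and the summed level of the 21 immediate early genes by pool was 15856, 14541, 14420 and 14596 CPM. The part of these measures in the levels was not tested.

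Bcl3 encodes an IkappaB family protein that binds p50 and p52 dimers in the nucleus. Bcl3 (chr7:19808462-19822770, minus strand) measured 3.49, 2.24, 2.66 and 3.27 CPM in WT mice given ATV:ISO and 6.47, 5.14, 5.95 and 6.06 CPM in WT mice given ATV:4D9. In AppSAA mice it measured 2.81, 2.90, 2.80 and 2.30 CPM under ATV:ISO, 2.81, 3.07, 2.24 and 3.09 CPM under 4D9 and 9.48, 5.76, 8.67 and 7.33 CPM under ATV:4D9. Both ATV:4D9 groups stood clear of the 3 other groups, and overlapped with each other. These levels rest on 50 to 106 UMIs per mouse in WT mice given ATV:ISO and 327 to 496 UMIs in WT mice given ATV:4D9. Bcl3 had the largest fold change of the 10 genes in both genotypes, 1.02 ± 0.161 in WT mice (adjusted p = 1.56e-05) and 1.53 ± 0.153 in AppSAA mice (adjusted p = 6.25e-08) on the log2 scale. Against 4D9 it was 1.48 ± 0.155 (adjusted p = 1.28e-07). Between genotypes Bcl3 differed by -0.11 ± 0.168 under ATV:ISO (adjusted p = 0.658). The genotype difference under ATV:4D9 was 0.40 ± 0.145 (adjusted p = 0.0791). It was called with the pool as a block (adjusted p = 0.0169) and without AppSAA ATV:4D9 replicate 2 (0.52, adjusted p = 0.0181), a fit in which Nfkb1 was called too (0.21, adjusted p = 0.0452). Opposite-strand transcripts Gm16174 and Gm16175 overlap Bcl3. Over the 20 mice the pattern most like that of Bcl3 was that of Ccnd1 (0.166), the gene of cyclin D1.

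Icam1, the adhesion molecule that binds leukocyte integrins, stood for the targets. Icam1 (chr9:21015985-21028817, plus strand) measured 158, 127, 173 and 154 CPM in WT mice given ATV:ISO and 206, 184, 300 and 257 CPM in WT mice given ATV:4D9. In AppSAA mice it measured 165, 126, 180 and 152 CPM under ATV:ISO, 158, 152, 145 and 165 CPM under 4D9 and 320, 190, 306 and 299 CPM under ATV:4D9. Every mouse given ATV:4D9 was above every mouse given ATV:ISO or 4D9, in either genotype. Icam1 rose by a log2 fold change of 0.63 ± 0.159 in WT mice (adjusted p = 0.00176), 0.84 ± 0.159 in AppSAA mice (adjusted p = 0.000164) and 0.85 ± 0.159 against 4D9 (adjusted p = 0.000156). Under ATV:ISO the genotypes differed by 0.03 ± 0.158 (adjusted p = 0.931), and under ATV:4D9 by 0.24 ± 0.158 (adjusted p = 0.426). The summed level of the 4 markers of endothelial cells, which also make Icam1, averaged 20.5 CPM in WT mice given ATV:ISO, 11.03 CPM in WT mice given ATV:4D9, and 44.4, 45.7 and 21.0 CPM in AppSAA mice given ATV:ISO, 4D9 and ATV:4D9. These 4 markers did not move together. In AppSAA against WT mice under ATV:ISO 1 was called higher and 1 lower, with log2 fold changes from -0.93 to 3.33. Under ATV:4D9 1 was called lower in WT mice and 2 in AppSAA mice, and 0 higher in either. The part of these markers in the Icam1 levels was not tested.

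**Figure D3:**
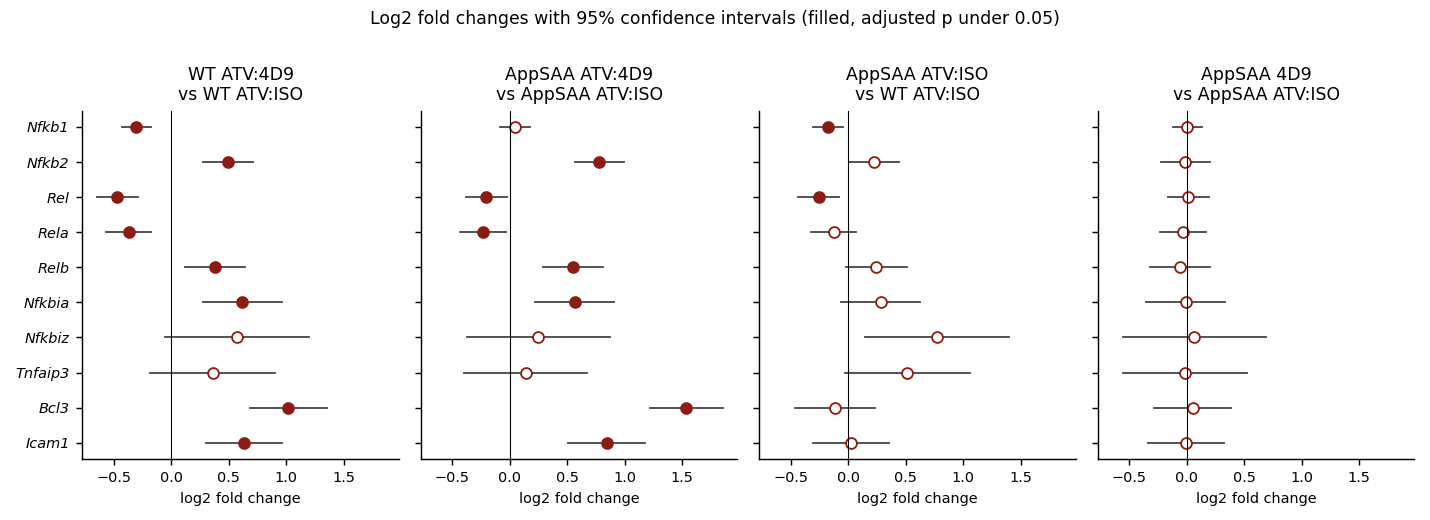
Log2 fold change (horizontal) of each of the 10 genes with its 95% interval in 4 comparisons of groups, from edgeR's quasi-likelihood fit; filled points have an adjusted p under 0.05. ATV:4D9 moves Bcl3, Icam1, Nfkb2, Relb and Nfkbia to the right of 0 in both genotypes, while all values for 4D9 against ATV:ISO lie between -0.05 and 0.07.

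For 4D9 without the vehicle no difference from ATV:ISO was called for any of the 10 genes in AppSAA mice. Log2 fold changes ran from -0.05 (Relb) to 0.07 (Nfkbiz), with adjusted p = 1.00 for each. Of all genes tested 0 were called by edgeR without the block, and 79 genes, none of them among the 10, had an unadjusted p under 0.05. Chance alone would give a share of 0.05 of the 14058 genes, which is more than 79. This fit ignores the pairing of mice by pool. For the 10 genes the smallest adjusted p under any alternative, among them the block, DESeq2 and limma-voom, was 0.9997. The 95% intervals still allow some difference: -0.12 to 0.14 for Nfkb1, -0.23 to 0.20 for Nfkb2, -0.16 to 0.19 for Rel, -0.23 to 0.16 for Rela, -0.32 to 0.21 for Relb, -0.55 to 0.52 for Tnfaip3, -0.28 to 0.39 for Bcl3, -0.33 to 0.32 for Icam1, -0.35 to 0.33 for Nfkbia and -0.55 to 0.69 for Nfkbiz. The dose and time were those of ATV:4D9, whose Fc differs from that of 4D9 in the deposited annotation as well as in the vehicle, so that the vehicle and the backbone cannot be told apart.

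CPM is a share of a cell's transcripts, and cells of mice given ATV:4D9 held more UMIs. Counted per cell, the group mean of each of the 10 genes was higher under ATV:4D9 than under ATV:ISO in both genotypes. In WT mice the mean per cell went from 0.0279 to 0.102 for Bcl3 (3.64-fold), from 1.47 to 4.14 for Icam1 (2.81-fold), from 6.38 to 17.8 for Nfkbia (2.79-fold) and from 0.167 to 0.424 for Nfkb2 (2.54-fold). Rel went from 0.9702 to 1.26 UMIs per cell (1.296-fold), Rela from 0.570 to 0.794 (1.39-fold) and Nfkb1 from 1.31 to 1.90 (1.46-fold). The falls of these 3 subunits in CPM were therefore falls relative to other genes and not in UMIs per cell. In AppSAA mice the folds in UMIs per cell were 4.11 for Bcl3, 2.54 for Icam1 and 2.43 for Nfkb2, against 1.22 for Rel and 1.21 for Rela. More RNA in each cell and a more complete capture of it cannot be told apart here, and in sums per mouse a change in the number of cells of a kind and in their RNA per cell cannot be told apart either.

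**Figure D4:**
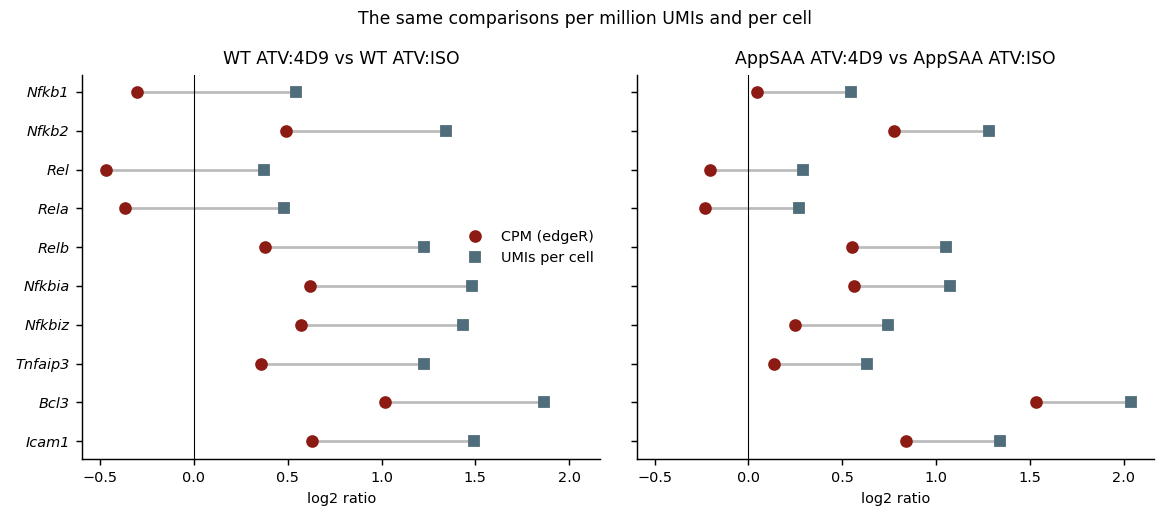
Log2 ratio of ATV:4D9 to ATV:ISO for each of the 10 genes in WT and AppSAA mice. Values in CPM are edgeR's log2 fold changes, and values in UMIs per cell are ratios of group means. Rel and Rela lie below 0 by CPM and above 0 by UMIs per cell in both genotypes.

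The other genes of the pathway were described by lists of receptors, kinases and adaptors, further inhibitors and targets. Rises and falls of all lists are in CPM, so relative to other genes, and their UMIs per cell were not computed. Under ATV:4D9 in WT mice 20 of 28 targets rose and 2 fell, beside the 30.8% of all genes that rose and the 32.5% that fell (median log2 fold change 1.05, against 0.44 over the 10 genes and -0.05 over all genes tested). Among targets with a mean of at least 10 CPM, the largest rises were those of the chemokine Cxcl10 (3.55 ± 0.3004, adjusted p = 3.23e-09), the cytokine Tnf (2.74 ± 0.248, adjusted p = 8.92e-09) and the chemokine Ccl2 (2.45 ± 0.248, adjusted p = 4.47e-08). Kinases and adaptors went the other way: 2 of 22 rose and 14 fell (median -0.43). Of 8 receptors 2 rose and 4 fell (median -0.40, from -0.81 to 2.85), and of 13 further inhibitors 3 rose and 5 fell (median -0.18). Of 21 immediate early genes 1 rose and 10 fell (median -0.40), with the largest falls in Klf4 (-1.34 ± 0.198, adjusted p = 6.67e-06), Klf2 (-0.97 ± 0.219, adjusted p = 0.00068) and Jund (-0.96 ± 0.131, adjusted p = 2.42e-06).

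In AppSAA mice the lists under ATV:4D9, read beside 27.9% of all genes higher and 27.1% lower, gave 18 of 28 targets higher and 1 lower (median 0.58), 4 of 22 kinases and adaptors higher and 11 lower (median -0.21), 2 of 8 receptors higher and 3 lower (median -0.10), and 7 of 13 further inhibitors higher and 3 lower (median 0.15). The median over the 10 genes was 0.40 and over all genes -0.03. Receptors ran from -1.04 to 3.77 on the log2 scale. Cxcl10 rose by 4.31 ± 0.310 (adjusted p = 5.13e-10), Ccl2 by 3.64 ± 0.260 (adjusted p = 4.43e-10) and the adhesion molecule Vcam1 by 2.64 ± 0.160 (adjusted p = 3.39e-11) on the log2 scale. Of the immediate early genes 1 rose and 8 fell, led by Egr2 (-1.33 ± 0.107, adjusted p = 2.74e-09). Against 4D9, 17 targets rose and 1 fell, where 27.6% of all genes rose and 26.7% fell. For 4D9 against ATV:ISO 0 genes of any list were called.

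Between genotypes under ATV:ISO 16 of 28 targets were higher and 1 was lower in AppSAA mice, where 14.4% of all genes were higher and 13.7% lower (median 0.72, against 0.12 over the 10 genes). The largest rises were those of the growth factor Csf1 (2.64 ± 0.221, adjusted p = 1.84e-08), the survival gene Bcl2a1d (1.96 ± 0.206, adjusted p = 4.25e-07), whose count is uncertain because it has near-identical copies, and the urokinase receptor gene Plaur (1.89 ± 0.210, adjusted p = 9.22e-07). Of 22 kinases and adaptors 0 were higher and 7 lower (median -0.16). Among the genes that fell most were the kinase gene Syk (-0.57 ± 0.0877, adjusted p = 4.31e-05) and the receptor gene Tlr4 (-0.57 ± 0.0864, adjusted p = 3.97e-05). Under ATV:4D9 the AppSAA mice had 13 targets and 4 further inhibitors higher than WT mice and 0 of either lower, where 7.84% of all genes were higher and 3.98% lower. Of 22 kinases and adaptors 2 were higher (median 0.008) and of 8 receptors 3, with 0 of either lower.

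The cells fall into 6 deposited clusters at the coarser resolution, numbered 0 to 5. In WT mice given ATV:ISO 60.4% of cells were in cluster 0 and 32.7% to 38.9% per mouse in cluster 3, whereas in WT mice given ATV:4D9 47.8% were in cluster 2 and 40.0% in cluster 4. In AppSAA mice given ATV:ISO or 4D9 clusters 0, 1 and 3 held most cells, and in AppSAA mice given ATV:4D9 clusters 2, 4 and 5 did (35.4%, 22.4% and 22.4%). Cells were placed in clusters by their expression, so levels between clusters are a description with no test. Levels in clusters 0 and 3, the pair that held most cells of control WT mice, are given side by side. Nfkbia averaged 231 CPM over 20 mice in cluster 0 and 1611 CPM in cluster 3, Nfkbiz 32.8 and 320.1 CPM, and Tnfaip3 37.4 and 221 CPM. The median over mice of the log2 ratio of cluster 3 to cluster 0 was 3.26 for Nfkbiz (2.76 to 3.90), 2.68 for Nfkbia (2.45 to 3.46), 2.36 for Tnfaip3 (1.79 to 3.98) and 1.26 for Icam1 (0.89 to 1.93), each higher in all 20 mice. It was 0.69 for Nfkb2 and 0.69 for Relb, also in all 20 mice. For Bcl3 it was 0.59 (-0.62 to 1.48, higher in 17 of 19 mice). It was 0.31 for Rel (18 of 20 mice), and 0.05 for both Rela and Nfkb1 (14 of 20 mice each). Immediate early genes summed to 5201 CPM in cluster 0 and 33526 CPM in cluster 3, against 11156 to 14987 CPM in the other clusters, and their part in these levels was not tested.

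Outside clusters 0 and 3, mean levels of Nfkbia were 811 CPM in cluster 1, 1109 CPM in cluster 2, 915 CPM in cluster 4 and 1012 CPM in cluster 5. Means over mice mix the groups, which differ in the clusters they fill: cluster 5 reached 20 cells in 1 of 4 WT mice given ATV:ISO and in all mice of the other groups. Over those 17 mice Bcl3 averaged 8.57 CPM, Nfkb2 37.2 CPM and Relb 58.0 CPM in cluster 5, against 4.62, 26.6 and 48.4 CPM over 20 mice in cluster 3. Within AppSAA mice given ATV:4D9, cluster 5 held the highest mean of Bcl3 (11.7 CPM), Nfkb2 (48.8 CPM) and Relb (74.97 CPM) among the 6 clusters. Summed monocyte markers also stood apart in cluster 5 (31.4 CPM over its 17 mice, against means of 4.34 to 6.56 CPM in other clusters). In whole AppSAA mice under ATV:4D9, Plac8 was called higher and the other monocyte markers lower, so the sum need not reflect them all. The part of these markers in the levels of Bcl3, Nfkb2 and Relb was not tested. Within AppSAA mice given ATV:ISO cluster 5 was again the highest for Bcl3 (5.25 CPM, against 5.14 CPM in cluster 2) but not for the others, with Nfkb2 at 29.6 CPM in cluster 2, 24.4 CPM in cluster 3 and 23.2 CPM in cluster 5, and Relb at 52.1, 48.8 and 47.98 CPM. Icam1 averaged 279 CPM in cluster 3, 253 CPM in cluster 5 and 239 CPM in cluster 2. Rela spanned 41.7 CPM in cluster 4 to 57.6 CPM in cluster 3, and Nfkb1 spanned 107 CPM in cluster 4 to 155 CPM in cluster 5.

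**Figure D5:**
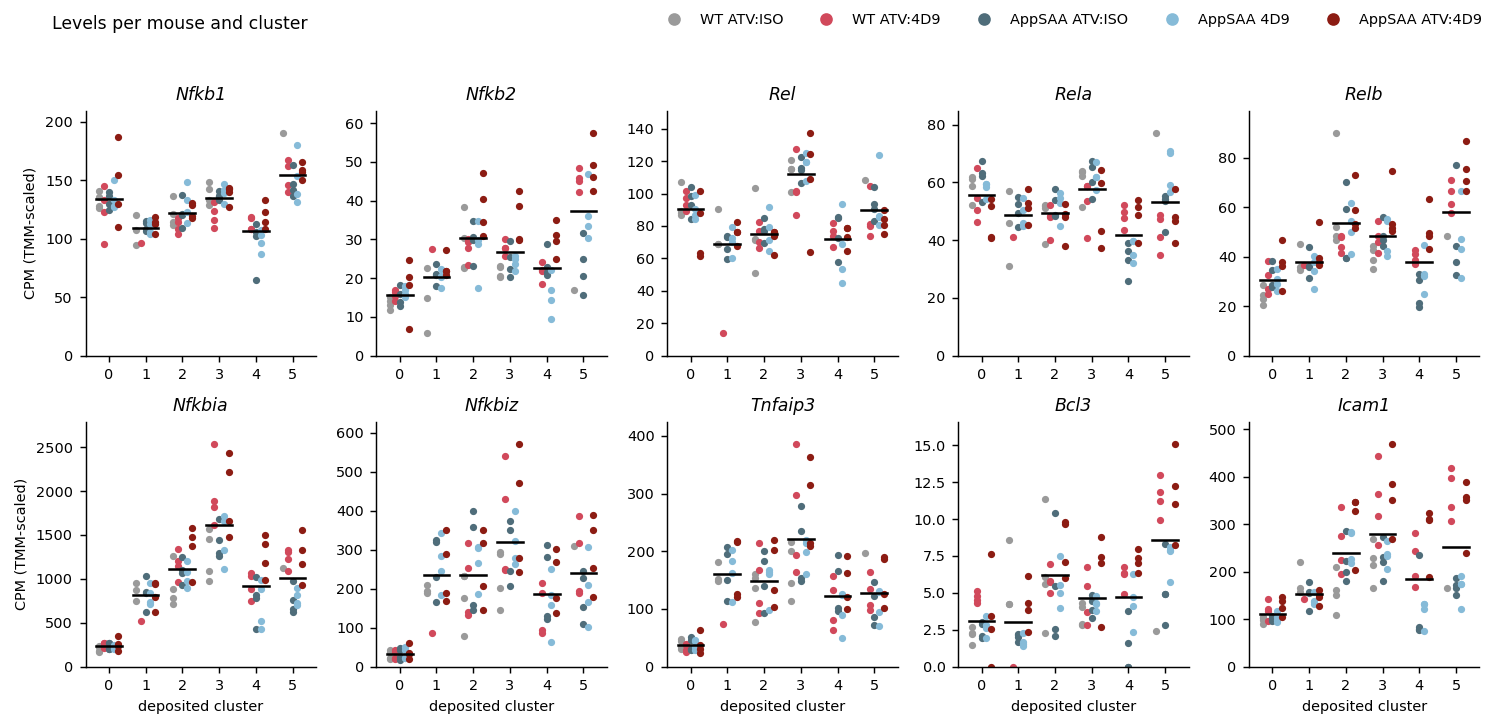
Level of the 10 genes in CPM per mouse (points, vertical axis) in deposited clusters 0 to 5 (horizontal), coloured by group, with bars at the mean over mice with at least 20 cells in the cluster. Nfkbia, Nfkbiz and Tnfaip3 have their lowest mean in cluster 0 and their highest in cluster 3, and the means of Bcl3, Nfkb2 and Relb are highest in cluster 5, where 1 WT mouse given ATV:ISO is included.

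Because cluster 3 held few of the cells of mice given ATV:4D9 (1.72% to 5.84% per mouse) and many in the other groups (21.8% to 38.9%), the comparisons were repeated with its cells left out, a value to set beside those for all cells. Cluster 3 was the cluster highest in Nfkbia, Nfkbiz and Tnfaip3, and its removal takes more cells from the control groups. Under ATV:ISO it takes a mean of 35.8% of cells in WT mice and 25.1% in AppSAA mice. Larger rises of these genes can therefore follow from the way the cells were left out. How far they do was not tested, and the values are a description with no test. In WT mice the log2 fold change under ATV:4D9 was then 1.95 for Nfkbia, 1.95 for Nfkbiz and 1.33 for Tnfaip3. Between genotypes under ATV:ISO it was 1.27 for Nfkbia, 1.98 for Nfkbiz and 1.30 for Tnfaip3. In AppSAA mice the ATV:4D9 value was -0.07 for Rel and -0.18 for Rela.

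Within clusters, mice of the groups were compared on sums of at least 20 cells. In cluster 3 Nfkbia measured 1564, 971, 1092 and 1458 CPM in WT mice given ATV:ISO and 1888, 1610, 2534 and 1813 CPM in WT mice given ATV:4D9. Icam1 in cluster 3 measured 214, 166, 269 and 229 CPM and 318, 257, 443 and 363 CPM in the same mice. Both genes had every ATV:4D9 mouse above its ATV:ISO partner of the pool, and for Nfkbia the groups were apart. The log2 fold change was 0.65 ± 0.171 for Nfkbia (adjusted p = 0.0195) and 0.67 ± 0.164 for Icam1 (adjusted p = 0.0128), 2 of 30 pairs of gene and cluster, where 4.42% of all pairs were called. Without WT ATV:ISO replicate 2 or WT ATV:4D9 replicate 3 the count was 0, and without WT ATV:ISO replicate 3 it was 1. Blocking on the pool gave 10, where 12.6% of all pairs were called. Among these were Nfkbiz (0.66, adjusted p = 2.2e-05) and Tnfaip3 (0.62, adjusted p = 4.0e-05) in cluster 3. In cluster 2, the largest cluster of WT mice given ATV:4D9, the log2 fold change against the few cells of ATV:ISO mice was 0.20 for Nfkbia (adjusted p = 0.522) and, of the genes furthest from 0, -0.54 for Relb (adjusted p = 0.1298, and 0.0550 with the block) and 0.53 for Icam1 (adjusted p = 0.129, and 0.0453 with the block).

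In cluster 0 Nfkbia measured 225, 164, 177 and 232 CPM in WT mice given ATV:ISO, 268, 209, 230 and 267 CPM in WT mice given ATV:4D9, 266, 195, 203 and 264 CPM in AppSAA mice given ATV:ISO and 254, 239, 179 and 353 CPM in AppSAA mice given ATV:4D9. Ranges overlapped throughout. The fit without the pool called 0 of the 10 genes in cluster 0 in WT mice given ATV:4D9, where 1.47% of all genes in this cluster were called, and 0 of 10 in AppSAA mice given ATV:4D9, where 0.667% were. With the pool as a block, Nfkbia (0.32, adjusted p = 0.00130) and Icam1 (0.25, adjusted p = 0.0350) were higher under ATV:4D9 in WT mice, where 8.96% of all genes in the cluster were called. In AppSAA mice Icam1 (0.43, adjusted p = 0.000632), Nfkbia (0.27, adjusted p = 0.0184) and Rela (-0.34, adjusted p = 0.0426) were called with the block, where 5.27% were.

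In AppSAA mice ATV:4D9 changed 11 of 60 pairs of gene and cluster, where 11.4% of all pairs were called, 2 in cluster 3, 4 in cluster 4 and 5 in cluster 5. Of all genes tested in these clusters 4.33%, 24.5% and 27% were called. Blocking on the pool gave 24, where 18.4% were called. In cluster 5 Nfkb2 measured 25.0, 15.6, 31.7 and 20.6 CPM under ATV:ISO, 46.9, 30.3, 35.9 and 33.5 CPM under 4D9 and 57.4, 42.4, 46.0 and 49.3 CPM under ATV:4D9. ATV:4D9 mice were clear of ATV:ISO mice, and the 4D9 mice overlapped with both groups. The log2 fold change of Nfkb2 against ATV:ISO was 0.91 ± 0.161 (adjusted p = 0.000178). Icam1 in cluster 5 measured 173, 150.2, 186 and 166 CPM under ATV:ISO, 174, 121, 174 and 190.0 CPM under 4D9 and 390 (389.9), 240 (239.6), 357 and 351 CPM under ATV:4D9. Its log2 fold change was 0.89 ± 0.145 against ATV:ISO (adjusted p = 6.68e-05) and 0.91 against 4D9 (adjusted p = 0.000204). Bcl3 in cluster 5 rested on 4 to 15 UMIs per mouse under ATV:ISO and rose by 1.21 ± 0.273 (adjusted p = 0.00181). In cluster 4 Bcl3 was called too (1.68 ± 0.417, adjusted p = 0.00463), from 0, 0, 7 and 2 UMIs in the ATV:ISO mice, so the size of that fold change depends on the prior count. In cluster 3 Nfkb2 (0.55 ± 0.131, adjusted p = 0.0125) and Icam1 (0.73 ± 0.165, adjusted p = 0.00952) rose.

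Within clusters ATV:4D9 against 4D9 called 11 of 60 pairs, where 8.9% of all pairs were called, and 19 with the block, where 15.1% were. Of the 11, 10 rose: Bcl3 in cluster 1, Nfkb2 and Icam1 in cluster 3, Nfkb2, Relb, Nfkbia and Icam1 in cluster 4 and Relb, Nfkbia and Icam1 in cluster 5. Rela in cluster 5 fell (-0.52, adjusted p = 0.0260). The count was 6 without 4D9 replicate 3 and 7 without ATV:4D9 replicate 1. 4D9 against ATV:ISO called 0 of 60, where 0% of all pairs were called, and 0 with the block. AppSAA against WT mice under ATV:ISO called 0 of 40, where 0.524% of all pairs were called. With the block 3 were called, where 2.62% of all pairs were: Relb (0.40) and Nfkbia (0.21) in cluster 0 and Relb in cluster 3 (0.28). Under ATV:4D9 the genotypes differed in 1 of 50 pairs, Nfkb2 in cluster 4 (0.46, adjusted p = 0.0235), where 2.27% of all pairs were called, and in 6 with the block, where 6.96% were. The count was 0 without WT ATV:4D9 replicate 2 or 4 or AppSAA ATV:4D9 replicate 1, 3 or 4 and 2 without AppSAA ATV:4D9 replicate 2.

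Genes whose pattern over the 20 mice was closest to further members, by the same root mean square log2 difference, were Ly6e (0.108) for Nfkb2, Prdx5 (0.107) for Relb, Ipo4 (0.162) for Icam1, Gpatch8 (0.0645) for Rel and Shc1 (0.0533) for Nfkb1. These values describe the 20 mice, which share 4 pools, and carry no test.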

How the data were processed

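Microglia of 20 mice were measured by 10x 3′ single-cell RNA-seq (v3.1 kit) in 4 pools. Per the labels and the methods, the authors mapped reads to mm10 with Cell Ranger 6.1.1, traced each cell to its mouse through CellPlex tags and clustered cells with Seurat. The filters on cells and genes and the treatment of doublets are not given in the sources used here, and no doublet caller was run. The deposited matrix holds raw UMI counts; the deposited annotation gives each cell's mouse, group, pool, cluster and mitochondrial percent, as the authors computed it. GEO's labels describe only mixed pools, so groups came from that annotation. The paper's methods give a sort for live CD11b+ cells; one deposited text names CD45 too, and the texts name cortex, or cortex with hippocampus.

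All cells were kept. Counts were added up for each mouse, and for each cluster of a mouse with at least 20 cells (3 mice per group). The sums were filtered with filterByExpr, scaled by TMM and fitted by the quasi-likelihood method of edgeR 4.0.16 under R 4.3.3, with Benjamini-Hochberg adjustment over all genes tested and a threshold of 0.05. One fit held all 5 groups with no pool term. Mice of a pool deviated together from their group means in 40 of 40 pairs (r 0.144 to 0.607), so the pool pairs the mice, a pairing stated in the deposited protocol. The SEs, intervals and calls of the fit with no pool term ignore this pairing. Values with the pool as a block are given beside many of them. CPM used TMM-scaled totals. DESeq2 1.42.0 and limma 3.58.1 (voom) were alternatives. The fitting code was first run on simulated counts. These held no pool effect and few changed genes, so they do not test the fit for data like these. Per-sample columns left unused numbered 0. Fold change direction is first group over second.

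The 10 genes and all lists were chosen with earlier results of these data known. All 10 are named in every comparison of whole mice; of the lists, at most the 3 called genes that rose most and the 3 that fell most, at a mean of at least 10 CPM, are named, and the genes most alike in pattern. Gene positions are from GENCODE vM21 (GRCm38), and promoter letters from RefSeq. Precision is limited by 4 mice per group and, for Bcl3, by counts. Levels of the 10 genes are not compared with each other.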

Additional observations from a re-analysis of the deposited data

Results flagged for a closer look

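Of 50 sets of 4 mice (10 genes in 5 groups), 2 held a mouse far from the others by Dixon's test, where chance gives about 1 in 20. AppSAA ATV:ISO replicate 4 had the lowest Bcl3 level of its group, 2.30 CPM against 2.80 to 2.90 CPM in the others. AppSAA ATV:4D9 replicate 2 had the lowest Icam1 level of its group, 189.6 CPM against 299 to 320 CPM. The ATV:4D9 difference of Nfkb1 differed between genotypes by 0.35 on the log2 scale in the interaction test of edgeR (adjusted p = 0.0139).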

How the results depend on the processing

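Over all alternatives, 0 of the called values changed sign. Of 1270 values of single genes, 1179 kept their side of the threshold, 57 lost a call and 34 gained one. Among those kept, 68 changed sign while not called in either fit. Of 211 counts, 165 stayed within 1.5 times the reported one and 46 did not. With the pool as a replicate block, members called were 7 in place of 2 between genotypes under ATV:ISO, 6 in place of 2 under ATV:4D9 and 3 in place of 1 in the interaction. Within clusters the replicate block gave 10 (WT), 24 (AppSAA), 19 (against 4D9), 3 (genotypes under ATV:ISO) and 6 (genotypes under ATV:4D9) in place of 2, 11, 11, 0 and 1. Between genotypes under ATV:ISO, DESeq2's size factors in edgeR gave 1, no filter on low counts 1, cells of 1000 to 25000 UMIs 0 and cells outside cluster 3 gave 6. Under ATV:4D9 the cells of 1000 to 25000 UMIs gave 4. The interaction gave 0 with unscaled library totals, an alternative chosen after seeing the data, 0 with no filter and 3 without cluster 3. Cluster 3 was highest in Nfkbia, Nfkbiz and Tnfaip3 and fuller in the control groups. Leaving it out can itself raise the differences of these genes, so nothing is read from the counts without it. Unscaled totals moved the median of all genes by 0.115 in WT mice under ATV:4D9 and by 0.185 and 0.140 between genotypes under ATV:ISO and ATV:4D9 (log2). Within clusters, genotypes under ATV:4D9 gave 2 with DESeq2, 3 with voom and 2 with no filter, genotypes under ATV:ISO gave 1 with voom, and a minimum of 50 cells, which leaves fewer clusters to test, gave 7 of 40 pairs in AppSAA mice and 3 of 30 against 4D9, in place of 11 of 60 in each. Leaving out each mouse gave 7 to 9 members called in WT mice, 5 to 6 in AppSAA mice, 5 to 6 against 4D9, 0 to 0 for 4D9, 0 to 2 and 1 to 4 between genotypes under ATV:ISO and ATV:4D9 and 0 to 1 in the interaction. Within clusters it gave 0 to 2, 9 to 14, 6 to 9, 0 to 0, 0 to 0 and 0 to 2 in the order WT, AppSAA, against 4D9, 4D9, genotypes under ATV:ISO and under ATV:4D9. For alternatives other than the block, the share of all genes called in the same fit is not given here. Their counts therefore do not tell a change in the 10 genes from a change in the whole test. The cause of the other changes was not tested.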
